A study of Mus musculus with 6 samples.

Results

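Slc38a1, Slc38a2 and Slc38a4 are 3 neighbouring genes on mouse chromosome 15 that encode amino acid transporters. DNA methylation at these 3 of 22238 annotated protein-coding genes was followed in MeDIP-seq peak lists of 6 samples of primary mesangial cells, the contractile cells of the kidney glomerulus. The members were chosen by position, as all peaks with a summit in the genes, between them or within 100 kb of their outer ends, and with the calls of control and TGF-β1 samples already known. The window (chr15:96301849-96986387, mm9) is 685 kb long and held 568 peaks of the 6 samples. Joining peaks with an overlap of 1 bp or more gave 154 regions, of 170444 in the whole genome, numbered here R001 to R154 in the order of their positions.

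The study compared 3 control samples with 3 samples given TGF-β1 at 10 ng/ml for 72 h. All 6 came from primary mouse mesangial cells between passages 3 and 6, grown in 25.5 mM glucose and 20% foetal bovine serum, so that the control samples were also in high glucose. No strain, sex or age of the donor animals is given in the labels. The study's text calls the replicates biological, but the sources used here do not say whether they were separate cultures or animals, so p-values measure only the spread between these samples, which may in part be technical. The peak lists hold no expression values, so the cell type was not checked against markers.

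The 3 transporters belong to the SLC38 family of sodium-coupled neutral amino acid transporters. Slc38a1 (SNAT1) and Slc38a2 (SNAT2) carry small neutral amino acids such as glutamine and alanine into cells by the activity known as system A, and Slc38a2 is induced when amino acids run short. Slc38a4 (SNAT4), strong in liver and placenta, is an imprinted gene in the mouse that is expressed mainly from the paternal allele. In MeDIP, sheared DNA that carries methylated cytosine is pulled down with an antibody, so a peak depends on the methylation of a stretch and also on how many CpG sites it holds.

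The sequences that the results turn on are shown here in lower case with each CpG, the site of methylation, in capitals. All are from the NCBIM37 assembly (the same as mm9), on the minus strand, which is the coding strand of all 3 genes. R025 (chr15:96411044-96411293, intron 12 of Slc38a1) was called in the control samples only. R094 (chr15:96707024-96707273) and R103 (chr15:96732070-96732319), both between Slc38a2 and Slc38a4, were called in the TGF-β1 samples only. R028 (chr15:96420757-96421006, around exons 6 and 7 of Slc38a1) had one of the highest mean pileups over the 6 samples, and R133 (chr15:96885598-96885847, intron 1 of Slc38a4) lay nearest to the outermost start site of Slc38a4. The stretch directly upstream of Slc38a2 (chr15:96530130-96530379) is shown as a contrast, because it is the densest in CpG and carried no peak. Each stretch is 250 bases long. R025, R094, R103 and R028 are centred on the median summit of their peaks and R133 on the summit of its highest peak, and the summit of R133 in control replicate 2 lay outside the stretch shown.
R025: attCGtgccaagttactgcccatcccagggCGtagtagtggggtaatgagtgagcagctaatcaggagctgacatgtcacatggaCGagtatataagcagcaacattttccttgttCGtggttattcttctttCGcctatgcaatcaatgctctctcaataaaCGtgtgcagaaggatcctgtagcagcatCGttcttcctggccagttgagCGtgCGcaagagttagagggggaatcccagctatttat
R094: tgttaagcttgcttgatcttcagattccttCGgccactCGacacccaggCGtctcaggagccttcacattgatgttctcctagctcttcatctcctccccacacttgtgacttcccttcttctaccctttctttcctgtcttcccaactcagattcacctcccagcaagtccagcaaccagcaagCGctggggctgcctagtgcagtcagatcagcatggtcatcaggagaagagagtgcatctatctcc
R103: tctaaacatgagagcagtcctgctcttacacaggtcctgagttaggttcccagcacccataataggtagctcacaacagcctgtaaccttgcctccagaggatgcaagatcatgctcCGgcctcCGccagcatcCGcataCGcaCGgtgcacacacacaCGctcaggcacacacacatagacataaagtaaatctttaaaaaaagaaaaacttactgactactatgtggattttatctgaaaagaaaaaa
R028: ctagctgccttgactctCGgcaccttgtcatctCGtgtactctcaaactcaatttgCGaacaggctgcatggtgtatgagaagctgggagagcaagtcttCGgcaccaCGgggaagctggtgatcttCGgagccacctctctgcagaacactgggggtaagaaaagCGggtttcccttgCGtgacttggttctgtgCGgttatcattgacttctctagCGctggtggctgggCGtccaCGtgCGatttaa
R133: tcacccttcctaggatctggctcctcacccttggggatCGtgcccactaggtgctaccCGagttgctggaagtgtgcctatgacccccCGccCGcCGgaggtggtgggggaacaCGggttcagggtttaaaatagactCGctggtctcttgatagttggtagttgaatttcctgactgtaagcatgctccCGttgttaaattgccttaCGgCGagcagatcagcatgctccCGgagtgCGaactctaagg
Slc38a2 upstream: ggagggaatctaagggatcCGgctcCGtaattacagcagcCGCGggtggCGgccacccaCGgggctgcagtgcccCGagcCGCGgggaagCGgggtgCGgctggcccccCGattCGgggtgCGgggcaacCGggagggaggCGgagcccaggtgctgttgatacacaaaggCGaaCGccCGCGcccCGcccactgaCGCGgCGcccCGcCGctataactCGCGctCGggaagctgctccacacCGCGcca
The stretch upstream of Slc38a2 held 31 CpG sites, R028 held 13, R133 held 12, R025 held 9, R103 held 6 and R094 held 4.

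By the file headers, the lists were called from 9407103 to 11494356 reads in the control samples and from 12634300 to 13291419 reads in the TGF-β1 samples. The read ranges of the groups did not overlap, so treatment and sequencing depth cannot be told apart wherever peaks are counted. The pileup of a peak is the number of extended reads over its summit, not corrected for depth, and the median pileup over all peaks was 19 to 22 in control and 22 to 23 in TGF-β1 samples. A sample without a peak at a region stayed below the threshold there and may still have had reads.

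Peaks were dense around the transporter genes. In control replicates 1, 2 and 3 the window held 85, 88 and 96 peaks. In TGF-β1 replicates 1, 2 and 3 it held 101, 88 and 110. This was 138 ± 14.0 peaks per Mb (SD, n = 6) against 37.6 ± 3.48 over chromosomes 1 to 19 and X, and 48.3 ± 4.50 over chromosome 15. The difference from the genome was 101 ± 11.5 peaks per Mb and was above 0 in 6 of 6 samples (exact two-sided sign-flip test, p = 0.031, the smallest that 6 samples allow). Among peaks of at least 5-fold enrichment the difference was 45.5 peaks per Mb. The window also held more CpG sites, 14.9 per kb against 8.34 per kb over the genome. Per 1000 CpG sites it held 9.31 ± 0.943 peaks against 4.51 ± 0.418 over the genome, again higher in 6 of 6 samples (exact two-sided sign-flip test, p = 0.031). Counting per CpG was chosen after the data were seen. Both tests cover only whether the 6 samples had the same sign at 1 locus, which was chosen with their calls known. No other windows of this length were compared, so they cannot show whether the window is unusual among loci.

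**Figure D1:**
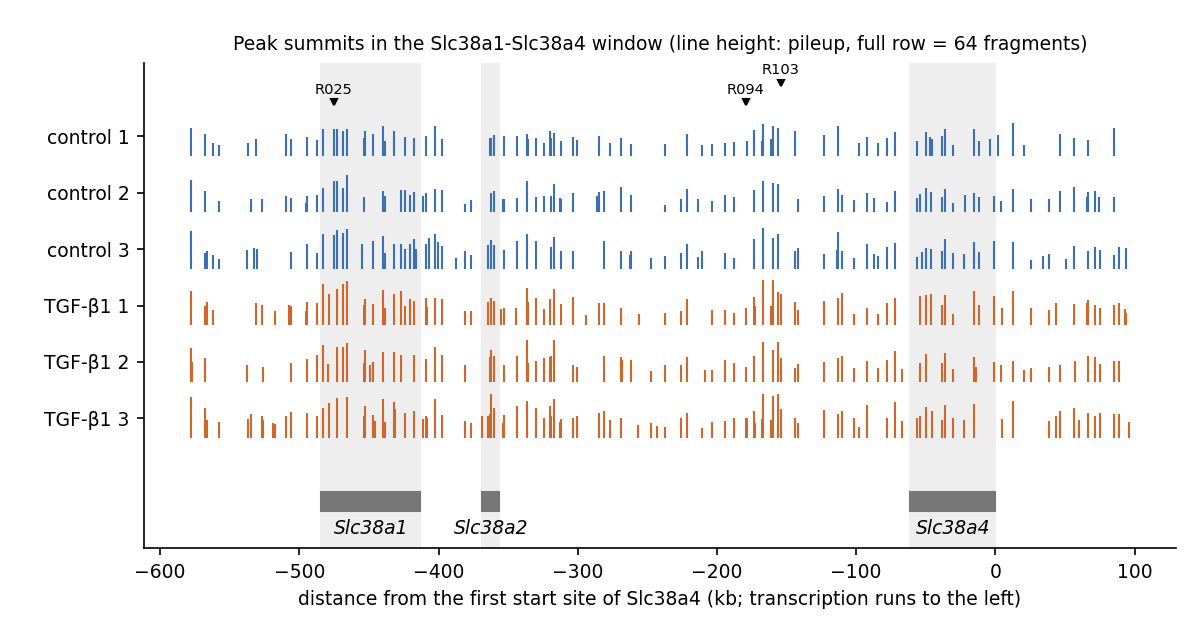
Peak summits of each sample along the window, as the distance in kb from the outermost start site of Slc38a4. Each line is a peak and its height is the pileup in fragments, with control samples in blue and TGF-β1 samples in orange. The 3 genes are grey, and triangles mark the 3 regions that were called in every sample of 1 group and no sample of the other.

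The background under these peaks was high as well. No input sample was used, so this background counts the MeDIP reads themselves, those of the peak and of nearby peaks included. It is therefore not independent of the peak density. From the fold enrichment and the pileup, the number of reads in the 10 kb around each summit was recovered, and it was a whole number within 0.05 in 100% of the peaks whose background was regional. In the window the median was 14.1 ± 0.476 reads per 10 kb per 1000000 reads (SD, n = 6), against 6.92 ± 0.216 at all peaks. Accordingly, the median pileup was higher in the window, at 25 to 31 against 19 to 23, while the median fold enrichment was lower, at 5.22 ± 0.190 against 6.21 ± 0.0914. Since MACS2 tests a summit against this background, a summit in the window needed more reads to be called than one at the usual background.

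**Figure D2:**
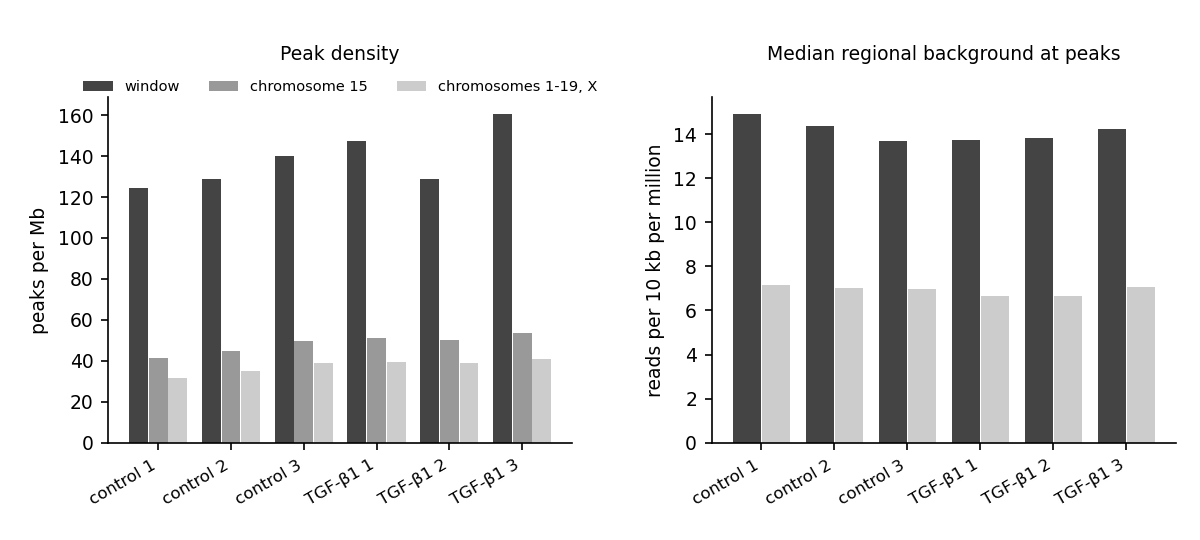
Left, peaks per Mb in each sample for the window, chromosome 15 and chromosomes 1 to 19 and X. Right, the median number of reads in the 10 kb around a peak, per 1000000 reads of the sample, for the window (dark) and for all peaks (light). In both panels the window exceeds the genome in all 6 samples.

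The start sites of Slc38a1 and Slc38a2 carried no peak in any sample. Slc38a1 (ENSMUSG00000023169.8, chr15:96401849-96473344) has 3 annotated start sites with 55 to 71 CpG sites within 500 bp on either side, and the nearest peak to any of them was 1826 bp away. Slc38a2 (ENSMUSG00000022462.6, chr15:96517825-96530129) has 1 start site with 96 CpG sites in the same span, an observed to expected CpG ratio of 1.03, and its nearest peak was 1257 bp away. The CpG-dense starts of both genes thus held no called region in control or in TGF-β1 samples.

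Slc38a4 (ENSMUSG00000022464.6, chr15:96825254-96886387) differed from its neighbours at the start. Its outermost start site had 32 CpG sites within 500 bp on either side, and R133 (chr15:96885254-96885913) began 474 bp downstream, in intron 1. That edge was set by control replicate 3. Of the peaks at R133, 2 lay within 500 bp of this start site and none on it. R133 had pileups of 24 and 39 in control replicates 2 and 3 and of 41 and 28 in TGF-β1 replicates 1 and 2, with no peak in control replicate 1 or TGF-β1 replicate 3. The 2 samples without a call had the lowest median GC content over all their peaks, 47.7% and 47.9% against 48.3% to 48.8% in the other 4, and the part of this in the missing calls was not tested. At the inner start site of Slc38a4, R126 (chr15:96850025-96850602) overlapped coding exon 2 and was called in all 6 samples. Its pileups were 39, 33 and 43 in control and 43, 41 and 47 in TGF-β1 samples, which overlap. The third start site of Slc38a4 had its nearest peak 2333 bp away. With 15 to 17 CpG sites around them, the 2 inner start sites were poor in CpG compared with those of Slc38a1 and Slc38a2.

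The share of each gene under a peak did not differ between the genes beyond the threshold of the test. In control replicates 1, 2 and 3, peaks covered 7.40%, 6.96% and 8.47% of Slc38a1, 9.75%, 6.80% and 9.02% of Slc38a2, and 5.82%, 7.45% and 7.73% of Slc38a4. In TGF-β1 replicates 1, 2 and 3, they covered 8.83%, 7.48% and 9.11% of Slc38a1, 10.9%, 9.30% and 11.5% of Slc38a2, and 6.24%, 5.16% and 6.68% of Slc38a4. Slc38a2 was the most covered and Slc38a4 the least covered in 5 samples, and control replicate 2 had the opposite order of the 3 genes. The difference was -1.53 ± 1.21 percentage points for Slc38a4 minus Slc38a1, -3.03 ± 2.21 for Slc38a4 minus Slc38a2 and 1.50 ± 1.05 for Slc38a2 minus Slc38a1 (SD, n = 6). None of the 3 differences passed the threshold (exact two-sided sign-flip tests, p = 0.0625 for each before and after Benjamini-Hochberg adjustment over the 3 pairs). With only peaks of at least 5-fold enrichment, Slc38a2 was no longer the most covered gene: Slc38a4 minus Slc38a2 was 0.839 and Slc38a2 minus Slc38a1 was -2.03 percentage points.

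**Figure D3:**
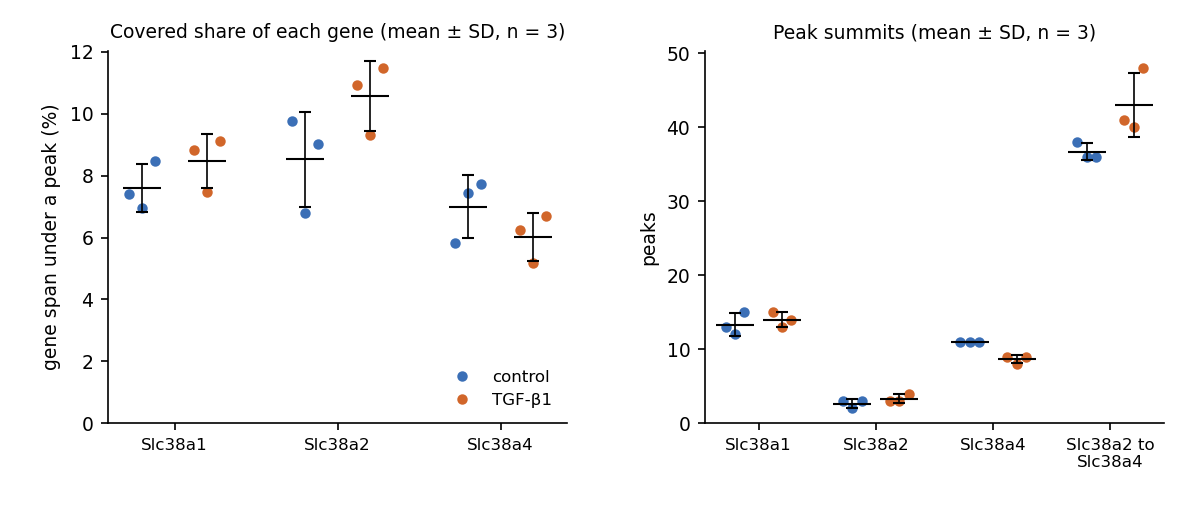
Left, the percent of each gene span under a peak. Right, the number of peak summits in each gene and in the stretch between Slc38a2 and Slc38a4. Points are samples and bars are mean ± SD (n = 3), and the peak numbers of the groups are apart at Slc38a4 and between Slc38a2 and Slc38a4.

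Control and TGF-β1 samples are compared from here on as a description with no test of the members, because the genes were chosen on this contrast. In the whole window the mean was 89.7 ± 5.69 peaks in control and 99.7 ± 11.1 in TGF-β1 samples (SD, n = 3), and the groups overlapped at 88 peaks. Per 1000000 reads, the order turned, at 8.65 ± 0.615 in control and 7.72 ± 0.678 in TGF-β1 samples. The direction of the difference in peak number thus depended on whether depth was divided out.

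Within the window the places did not move alike. Slc38a4 had 11 peaks in each of the 3 control samples and 9, 8 and 9 in TGF-β1 replicates 1, 2 and 3, so that the less deeply sequenced control samples had more. Of 15361 protein-coding genes with a peak in any sample, 0.28% had fewer peaks in every TGF-β1 sample than in any control sample. These include genes with fewer peaks than Slc38a4, where the groups can come apart less easily. The share among genes with a similar number of peaks was not computed. Per 1000000 reads, Slc38a4 had 1.06 ± 0.106 peaks in control and 0.672 ± 0.0366 in TGF-β1 samples (SD, n = 3). Among peaks of at least 5-fold enrichment, however, the groups overlapped, with 2, 4 and 4 peaks in control and 3, 2 and 4 in TGF-β1 samples. The median regional background at the Slc38a4 peaks was 13.8 to 16.7 reads per 10 kb per 1000000 in control and 16.2 to 17.8 in TGF-β1 samples, and its part in the number of calls was not tested.

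Slc38a1 and Slc38a2 showed no such gap in the number of peaks. Slc38a1 had 13, 12 and 15 peaks in control and 15, 13 and 14 in TGF-β1 samples. Slc38a2 had 3, 2 and 3 peaks in control and 3, 3 and 4 in TGF-β1 samples. Per 1000000 reads, Slc38a1 had 1.28 ± 0.0230 peaks in control and 1.09 ± 0.0792 in TGF-β1 samples (SD, n = 3), where the groups did not overlap. The share of genes apart on this scale was not computed, and each TGF-β1 sample had more reads than any control sample. On the same scale Slc38a2 had 0.255 ± 0.0394 and 0.258 ± 0.0373, and its groups overlapped. By number of peaks, neither was among the 3.89% of protein-coding genes with more peaks in every TGF-β1 sample than in any control sample. The 295 kb between Slc38a2 and Slc38a4, which hold no annotated gene, had 38, 36 and 36 peaks in control and 41, 40 and 48 in TGF-β1 samples. The groups did not overlap there, but per 1000000 reads they did, at 3.55 ± 0.367 in control and 3.33 ± 0.244 in TGF-β1 samples (SD, n = 3). How many other stretches of the genome were apart by number of peaks was not computed.

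Of the 154 regions, 44 (28.6%) had a peak in all 6 samples, against 24.5% of all regions of the genome, and 33 (21.4%) in 1 sample, against 27.3%. The shared regions had a median pileup of 33.8, against 24 for regions of 1 sample, and a median CpG density of 27.7 against 28.0 sites per kb. When each region was searched in the genome, 130 of the 154 had no other match of at least 80% identity over at least 50% of their length. A repeat that fills less of a region than this was not counted. Of the other 24 regions, 14 had 100 or more matches, and only uniquely mapped reads had been kept.

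A single region was called in all 3 control samples and no TGF-β1 sample, 0.649% of the 154 against 0.233% of all regions. This was R025 (chr15:96410975-96411323) in intron 12 of Slc38a1. Its pileups were 38, 44 and 48 in control replicates 1, 2 and 3, above the window medians of 27, 25 and 28.5 in these samples. The enrichment was 3.78-, 4.50- and 4.27-fold, over a background of 330, 319 and 366 reads per 10 kb against window medians of 154, 135 and 158.

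The peaks at R025 were short, as were many others. MACS2 lists no peak shorter than the fragment length, 282, 282 and 286 bp in the control samples, and the 3 peaks at R025 were 326, 327 and 325 bp long. In control replicates 1, 2 and 3, 44.7%, 43.2% and 38.5% of the window peaks were within 50 bp of that length. The TGF-β1 samples had their nearest peaks 2227 to 2364 bp away, where the background was 375, 328 and 378 reads per 10 kb. At that background a pileup of 23 to 26 would have reached the lowest p called in those samples, over a stretch at least as long as a fragment. R025 also had 294 other matches in the genome, the best with 97.3% identity. All 3 calls reached a −log10 q of 5, and none reached a 5-fold enrichment.

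In intron 15 of the same gene, R024 (chr15:96407760-96408087) had the opposite pattern. It was called in TGF-β1 replicates 1 and 3, with pileups of 45 and 50, and in no control sample. The peak of TGF-β1 replicate 1 was 287 bp long, 1 bp above the shortest length listed in that sample. The peaks of the control samples at R025 were the nearest to R024, 3120 to 3226 bp away, so the 2 regions of Slc38a1 differed in opposite directions within a short distance.

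Peaks in all 3 TGF-β1 samples and no control sample were found at 2 regions, 1.30% of the 154 against 0.948% of all regions. R103 (chr15:96731977-96732681) lay 118072 bp from the nearest annotated start site and had pileups of 45, 34 and 41 in TGF-β1 replicates 1, 2 and 3. Its enrichment was 6.21-, 5.42- and 5.22-fold, so all 3 calls passed 5-fold and also a −log10 q of 5. The control samples had their nearest peaks 1691 to 1722 bp away. At the background there, a pileup of 17 to 19 would have reached their lowest p.

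R094 (chr15:96706961-96707399) lay 143354 bp from the nearest start site and was weaker. Its pileups were 24, 21 and 28 in TGF-β1 replicates 1, 2 and 3, with enrichments of 4.33-, 4.02- and 4.44-fold. All 3 calls reached a −log10 q of 5 and none a 5-fold enrichment. R094 and R103 had no other match in the genome.

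**Figure D4:**
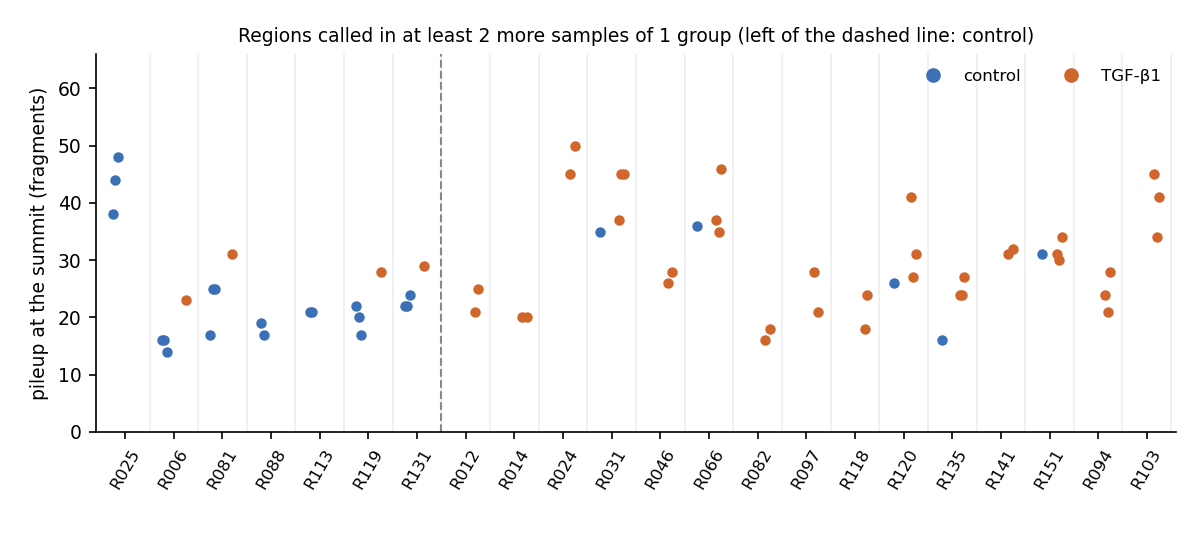
Pileup in fragments, per sample, at the 22 regions called in at least 2 more samples of 1 group than of the other. The 7 regions with more control calls are left of the dashed line and the 15 with more TGF-β1 calls right of it, and a sample without a point had no peak there.

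With a weaker contrast, of at least 2 samples, 7 regions (4.55%) had more control calls and 15 (9.74%) had more TGF-β1 calls, against 3.12% and 7.85% of all regions. Of the 7 regions with more control calls, R025 was in Slc38a1, R119 and R131 were in Slc38a4, R006 was in the flank beyond Slc38a1, and R081, R088 and R113 lay between Slc38a2 and Slc38a4. R119 (chr15:96829759-96830510), which overlaps exon 14 of Slc38a4, had pileups of 22, 20 and 17 in control and 28 in TGF-β1 replicate 3. R131 (chr15:96874312-96874715), in intron 1 of Slc38a4, had pileups of 22, 22 and 24 in control and 29 in TGF-β1 replicate 1. At these regions and at R006 (16, 16 and 14 in control, 23 in TGF-β1 replicate 3), the 1 TGF-β1 sample that was called had a higher pileup than any control sample. R081 had pileups of 17, 25 and 25 in control and 31 in TGF-β1 replicate 2. R088 (19 and 17) and R113 (21 and 21) were called in control replicates 2 and 3 only.

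The 15 regions with more TGF-β1 calls were spread over all places but Slc38a2. In Slc38a1 they were R024 and R031, the latter with pileups of 35 in control replicate 1 and 37, 45 and 45 in TGF-β1 samples. In Slc38a4 the only one was R120 (chr15:96831749-96832171, intron 13), with 26 in control replicate 2 and 41, 27 and 31 in TGF-β1 samples. It is the next region after R119, so neighbouring regions of this gene differed in opposite directions.

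Outside the genes, R066, R082, R094, R097, R103 and R118 lay between Slc38a2 and Slc38a4. R066 had 36 in control replicate 1 and 37, 35 and 46 in TGF-β1 samples, while R082, R097 and R118 were called in 2 TGF-β1 samples with pileups of 16 to 28. R046 (26 and 28 in TGF-β1 replicates 1 and 3) was the only one between Slc38a1 and Slc38a2. In the outer flanks they were R012, R014, R135, R141 and R151. Of these, R151 reached 31 in control replicate 3 and 31, 30 and 34 in TGF-β1 samples, R135 had 16 in control replicate 2 and 24, 24 and 27 in TGF-β1 samples, and the rest had 20 to 32 in 2 TGF-β1 samples.

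Coding exons of the transporters were overlapped by 14 regions, 5 in Slc38a1, 4 in Slc38a2 and 5 in Slc38a4. In Slc38a1, R028 (chr15:96420453-96421197, exons 6 and 7) had pileups of 39, 53 and 56 in control and 63, 55 and 58 in TGF-β1 samples. R035, over exon 3, had 42, 30 and 47 in control and 50, 42 and 56 in TGF-β1 samples. Both were called in all 6 samples and their groups overlapped. R027 (exons 9 and 10) lacked a call in TGF-β1 replicate 3, R037 (exon 2) lacked one in control replicate 2, and R034 (exon 4) was called in TGF-β1 replicate 3 alone.

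In Slc38a2, 2 coding regions were called in all 6 samples. R057 (chr15:96523871-96524441, exon 8) had pileups of 25, 28 and 41 in control and 38, 45 and 62 in TGF-β1 samples. R058 (chr15:96525789-96526152, exon 5) had 30, 30 and 34 in control and 35, 37 and 43 in TGF-β1 samples, which did not overlap before correction for depth, while those of R057 did. The share of all regions apart before this correction was not computed, and each TGF-β1 sample had more reads than any control sample. R055 (exons 14 and 15) and R056 (exons 10 to 12) were each called in 1 control and 2 TGF-β1 samples. In Slc38a4, R122 (exon 13) was called in all 6 samples with pileups of 30 to 35 in control and 39 to 44 in TGF-β1 samples, R124 (exons 7 to 9) lacked a call in TGF-β1 replicate 2, and R123 (exon 10) was called in control replicate 1 alone.

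Among the regions called in all 6 samples, the mean pileup was highest at R099, followed by R028 (54.0), and R101 and R026 shared the third place (49.5). R099 (chr15:96719289-96719949) had pileups of 45, 45 and 58 in control and 64, 56 and 63 in TGF-β1 samples. R101 (chr15:96725964-96726641) had 42, 42 and 44 in control and 64, 45 and 60 in TGF-β1 samples. The groups overlapped at R099 and not at R101, before any correction for depth. The share of all regions apart on that scale was not computed. Both regions lay between Slc38a2 and Slc38a4 and were members of a repeated sequence, with 4675 and 3094 other matches in the genome and a best identity of 99.7%. R028 had no other match over at least 50% of its length. R026 (chr15:96413164-96413739), in intron 12 of Slc38a1, had 39, 45 and 55 in control and 52, 49 and 57 in TGF-β1 samples, which overlap, and 413 other matches.

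To set depth aside, log2 pileup was centred on the median of each sample over the 41744 regions of the genome called in every sample and compared with limma. At an adjusted p below 0.05, 0% of these regions were called (Benjamini-Hochberg over all 41744), and at an unadjusted p below 0.05, 1.96% were higher and 2.22% were lower in TGF-β1 samples. The centred pileups of the groups did not overlap at 4.33% of these regions with TGF-β1 samples higher and at 4.96% with them lower. Of the 44 regions of the window, 1 (2.27%) was apart in each direction. The values of the window are given from this fit as a description. The log2 difference of R057, in exon 8 of Slc38a2, was 0.41 ± 0.19 (SE, n = 3 per group), the highest of the 44 regions of the window with all 6 samples. It was 0.25 without TGF-β1 replicate 3, 0.30 without control replicate 1 and 0.380 without control replicate 2. Other regions were then higher, at up to 0.38, 0.43 and 0.387. R108 (chr15:96773396-96773875), between Slc38a2 and Slc38a4, had the lowest with all 6 samples, -0.48 ± 0.18, with pileups of 42, 34 and 52 in control and 39, 33 and 34 in TGF-β1 samples. R108 was named after its values were seen, and it had 1333 other matches in the genome.

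The 44 regions had a median log2 difference of 0.07, against -0.0047 over all 41744 regions. Of the 44, 28 were above and 16 below 0, against 20521 above and 21223 below 0 over all regions. By place, the median was 0.04 in Slc38a1 (5 regions), 0.24 in Slc38a2 (2 regions), 0.07 in Slc38a4 (5 regions) and 0.09 between Slc38a2 and Slc38a4 (20 regions). It was 0.04 in the flank beyond Slc38a1 (5 regions), -0.03 between Slc38a1 and Slc38a2 (3 regions) and -0.05 in the flank beyond Slc38a4 (4 regions). Scaled by reads, which moved the median of all regions to -0.10, the median of the 44 was -0.02 with 19 above 0. Without control replicate 2 it was -0.0025, with 21 above 0. The exonic regions R028 (0.04 ± 0.16), R058 (0.07 ± 0.18) and R126 (-0.03 ± 0.17) all lay within 1 SE of 0.

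**Figure D5:**
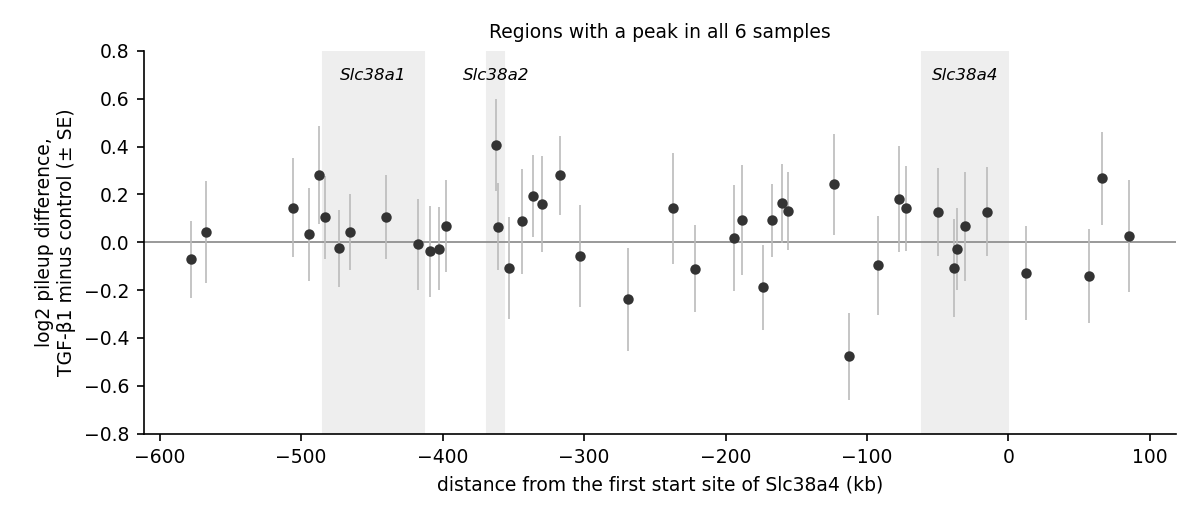
Difference in log2 pileup, TGF-β1 minus control, with its SE, for the 44 regions called throughout, by distance in kb from the outermost start site of Slc38a4. Values lie between -0.48 and 0.41, and with all 6 samples the highest is in Slc38a2.

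The other SLC38 genes had fewer peaks per 10 kb, a measure that was not corrected here for the CpG content of the genes. With 2 kb on either side, Slc38a1, Slc38a2 and Slc38a4 had 1.85, 2.04 and 1.51 peaks per 10 kb on average over the 6 samples. The 8 other family members, all found in the annotation, had a median of 0.546 and a highest value of 1.08 peaks per 10 kb, at Slc38a6. Of their 42 regions, 7 were shared by all 6 samples, against 24.5% of all regions of the genome. Of the same 42, 0 were called in every sample of 1 group alone, against 0.233% (control) and 0.948% (TGF-β1) of all regions. Among 16 other amino acid transporters, all of them found, the median was 0.901 peaks per 10 kb. Slc1a4, a neutral amino acid exchanger (1.74), and Slc7a1, a carrier of cationic amino acids (1.53), were above Slc38a4.

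The 16 transporters held 119 regions, and 31 of them were shared by all 6 samples, against 24.5% of all regions of the genome. Of the 119, 1 was called in every TGF-β1 sample and no control sample, against 0.948% of all regions. It lay at Slc7a8, which encodes the LAT2 exchanger. Slc7a8 had 1, 2 and 1 peaks in control and 5, 2 and 5 in TGF-β1 samples, which overlap at 2. No region of these 16 genes was called in every control sample and no TGF-β1 sample, against 0.233% of all regions. In limma, 0 of the regions in the 8 family members and the 16 transporters were called at an adjusted p below 0.05.

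At the edges of the window, the limit of 100 kb set which regions were members. At the end beyond Slc38a1, the last summit inside lay 6628 bp from the limit in a region called in all 6 samples, with pileups of 40 to 59. The next summit outside lay 5994 bp beyond it in a region called in 2 control and 2 TGF-β1 samples, with pileups of 23 to 26. Beyond Slc38a4, the last summit inside lay 3950 bp from the limit, with a pileup of 23 in TGF-β1 replicate 3 alone, and the next outside lay 1224 bp beyond it in a region called in all 6 samples, with pileups of 23 to 37.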

How the data were processed

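The data were MeDIP-seq peak lists of primary mouse mesangial cells, 3 control and 3 TGF-β1-treated samples, with groups and replicate numbers from the sample labels. The genes, lists and tests were chosen with earlier results of these data known. Per the file headers and the study's methods, the authors mapped reads to mm9 with BWA, kept uniquely mapped reads once per start position, and called peaks in each sample with MACS2 2.1.0.20150731 at a q cutoff of 0.01, without an input sample and with a regional background of 10 kb. The deposited lists give the pileup as a signal with no scaling for depth, the fold enrichment as a ratio of pileup to background, and the −log10 of each p- and q-value.

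Peaks were placed by summit and joined by an overlap of at least 1 bp (checked against bedtools 2.31.1). Genes were those of GENCODE vM1, and introns and exons those of the transcript with the longest span. Background reads were recovered as (pileup + 1) / fold enrichment − 1, scaled to 10 kb by the fragment length. Densities and covered shares were compared within samples by exact two-sided sign-flip tests over 6 samples, and regions with peaks in all samples by limma 3.58.1 in R 4.3.3 (lmFit, eBayes with a trend) on log2 pileup centred on sample medians, tested on simulated data. Other calculations used Python 3.11.15, and matches in the genome were searched with blastn 2.17.0. The regions named were those within 1 kb of a start site or over a coding exon, the 3 highest of those called in all samples, those differing by at least 2 samples, and the edges of the window. The 16 other transporters were named where a region within 2 kb differed by 3 samples, and Slc1a4, Slc7a1 and Slc38a6 were named after their values were seen. The study's test on read counts could not be run on peak lists, and reads of uncalled regions were not used here. Precision is set by 9407103 to 13291419 reads per sample. Alternatives were stricter peaks, other flanks, other scalings, 200 bp joining, leaving out each sample and a replicate block.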

Additional observations from a re-analysis of the deposited data

How the results depend on the processing

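The density of peaks above the genome was 96.9 to 102.9 peaks per Mb with 1 sample left out and 101 with the replicate block (means of same-numbered samples), where the smallest possible p is 0.0625 and 0.25, so neither can pass the threshold. It stayed above 0 in all 6 samples at stricter peaks (45.5 at 5-fold enrichment), other flanks, chromosome 15 alone and per CpG, where p was again 0.031, the smallest that 6 samples allow. The gene differences in covered share reversed at 5-fold enrichment for Slc38a4 minus Slc38a2 (0.839) and Slc38a2 minus Slc38a1 (-2.03), and the cause was not tested. With 2 kb on either side of each gene, they were -1.83 and 0.252. With 1 sample left out they were -1.93 to -1.31, -3.77 to -2.68 and 1.33 to 1.84 percentage points. The excess of 10 window peaks in TGF-β1 samples reversed per 1000000 reads (-0.927), was 4.83 without TGF-β1 replicate 3 and 15.8 without TGF-β1 replicate 2, and stayed 10 with the replicate block. By gene, it reversed at Slc38a1 (0.667) at 5-fold enrichment (-0.667) and per 1000000 reads (-0.194), and between Slc38a2 and Slc38a4 per 1000000 reads (-0.216). At 5-fold enrichment, 0 regions were called in control samples alone and 1 in TGF-β1 samples alone. The median log2 difference of shared regions reversed with scaling by reads (-0.0247) and fold enrichment (-0.0116), and was -0.0025 to 0.0743 with 1 sample left out. In limma, 1 region of the genome was called with fold enrichment in place of pileup and 0 under the other settings, the replicate block included. At an unadjusted p below 0.05, scaling by reads gave 212 regions higher and 2387 lower, against 818 and 926. Deviations of same-numbered samples from their group mean correlated at -0.0464, 0.0432 and -0.130, against -0.124 to 0.168 for samples of different number. These correlations cannot show whether the samples were handled in pairs. The replicate block changed no other call. The lists limit these data to called peaks.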

Other observations

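The annotation places 2 further genes in the window, both small RNA genes between Slc38a1 and Slc38a2, a U6 snRNA (chr15:96502224-96502331) and the miRNA gene AC109201.1 (chr15:96505845-96505966). Peaks of the window had a median CpG density of 28.8 to 30.8 sites per kb over the 6 samples, against 24.1 to 26.3 for all peaks of chromosome 15, while their median GC content was similar, at 47.8% to 48.7% against 47.7% to 48.7%. Of the 44 regions called in all 6 samples, 6 had 100 or more matches elsewhere in the genome, and of the 33 called in 1 sample, 2 had as many.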
